A study of Mus musculus with 48 samples.

Results

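The mouse mitochondrial genome carries 37 annotated genes, and they were taken here as every gene that the deposited annotation places on chromosome M, 37 of the 46517 genes counted. They comprise 13 protein-coding genes, 2 rRNA genes and 22 tRNA genes, of which 9 lie on the minus strand (mt-Nd6 and 8 tRNA genes). Smart-seq3 RNA sequencing was carried out on 16 samples, each sequenced as 3 technical libraries that were summed here, giving 48 libraries in all. All samples are labelled as wild-type albino C57BL/6N mice, whereas the study's methods name albino mice of C57BL/6J background (B6(Cg)-Tyrc-2J/J), adults of both sexes of at least 3 months. The 5 explants are spheroids of primary liver cells enriched for hepatocytes, recovered together with surrounding iris 2 months after transplantation into the anterior chamber of the eye. They were set beside 3 irises, 3 livers, 3 preparations of isolated hepatocytes and 2 samples of spheroids kept in vitro. In bulk samples such as these, fewer cells of a type and less RNA per cell cannot be told apart, and nothing in the labels says which samples came from separate animals, so the p-values measure the spread between these samples only.

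Total counts per sample ran from 5449589 to 6789648 in the explants, 4596550 to 4881817 in the irises, 3523171 to 3871404 in the livers, 2718518 to 3573075 in the hepatocytes and 3247327 to 3447643 in the spheroids. As TPM, the length-scaled level in the deposited tables, 10 hepatocyte markers summed to 13724 to 18079 in livers, hepatocytes and spheroids, 5780 to 8308 in explants and 1638 to 1963 in irises. The 8 markers of iris summed to 6996 to 7421 TPM in irises, 4977 to 6425 TPM in explants and 358 to 494 TPM in the other groups.

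Mitochondrial DNA is copied into long transcripts from both strands, and these are cut into rRNAs, tRNAs and mRNAs, in many places at the tRNAs that lie between the other genes. Its proteins are all subunits of the respiratory chain or of ATP synthase, and its rRNAs and tRNAs serve the ribosome inside the organelle that makes them. Hepatocytes are rich in mitochondria, and stretches of mitochondrial DNA have also been inserted into nuclear chromosomes in the course of evolution.

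Which reads could be counted depended on sequences that mitochondrial genes share with each other or with nuclear copies, and the stretches that matter for the results are shown first, read from the GENCODE M21 transcripts on build GRCm38. The first pair is the start of mt-Nd3 (chrM:9459-9519, plus strand) and of its copy Gm28438 (chr1:24613059-24613119, minus strand), with the single differing base in capitals.
mt-Nd3: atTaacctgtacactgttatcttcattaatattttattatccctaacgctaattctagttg
Gm28438: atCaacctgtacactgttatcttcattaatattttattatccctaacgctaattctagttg
Counted from the first base of mt-Nd3, the difference is T3C, at position 9461 of chromosome M. The second pair is the end of mt-Atp8 (chrM:7907-7969) and the start of mt-Atp6 (chrM:7927-7989), both on the plus strand, with the 43 bases that belong to both genes in capitals.
mt-Atp8 end: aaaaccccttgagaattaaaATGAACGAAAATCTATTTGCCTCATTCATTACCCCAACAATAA
mt-Atp6 start: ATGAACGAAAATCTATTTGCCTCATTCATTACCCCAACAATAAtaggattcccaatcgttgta
The last is mt-Tl1 (chrM:2676-2750, plus strand), a tRNA gene for leucine that lies between mt-Rnr2 and mt-Nd1 and differed most clearly between hepatocytes and liver.
mt-Tl1: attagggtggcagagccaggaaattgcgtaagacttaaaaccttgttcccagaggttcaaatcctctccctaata

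Per base of gene length, the mitochondrial genes differed by orders of magnitude, and the highest of them stood at the top of all genes. The highest was mt-Nd1, a membrane subunit of complex I (NADH dehydrogenase), with a mean of 1.49 counts per base per technical library. Next came mt-Cytb, the mitochondrially encoded subunit of complex III, with 1.39, mt-Rnr2, the rRNA of the large mitoribosomal subunit, with 1.27, and mt-Atp8, a subunit of ATP synthase (complex V), with 1.19. Over all genes of at least 500 bases, the highest value of a library lay between 1.44 and 1.703, and mt-Nd1 itself was that highest gene in 20 of the 48 libraries. Alb, the gene of serum albumin, was the highest in 19 libraries.

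A middle group held mt-Nd2 at 1.01, mt-Nd5 at 1.00 and mt-Nd6 at 0.953 counts per base, all subunits of complex I, and mt-Rnr1, the rRNA of the small mitoribosomal subunit, at 0.658. The catalytic subunit of cytochrome c oxidase (complex IV), mt-Co1, had 0.524 and the complex I subunit mt-Nd4 had 0.499. The remaining 5 protein-coding genes were far lower, with 0.0744 for mt-Atp6, 0.0211 for mt-Nd3, 0.0159 for mt-Nd4l, 0.00114 for mt-Co3 and 0.000365 for mt-Co2. The 3 mitochondrially encoded subunits of complex IV, which are present in equal number in the enzyme, were thus counted at levels per base from the middle of the range down to nearly none. Among the tRNA genes, 8 had a mean of at least 50 counts per sample, led by mt-Te for glutamate with 0.756 counts per base, mt-Tl1 with 0.732, mt-Ts1 for serine with 0.620 and mt-Tm for methionine with 0.566. The other 14 had means from 1.19 counts for mt-Th to 43.7 counts for mt-Tc.

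**Figure D1:**
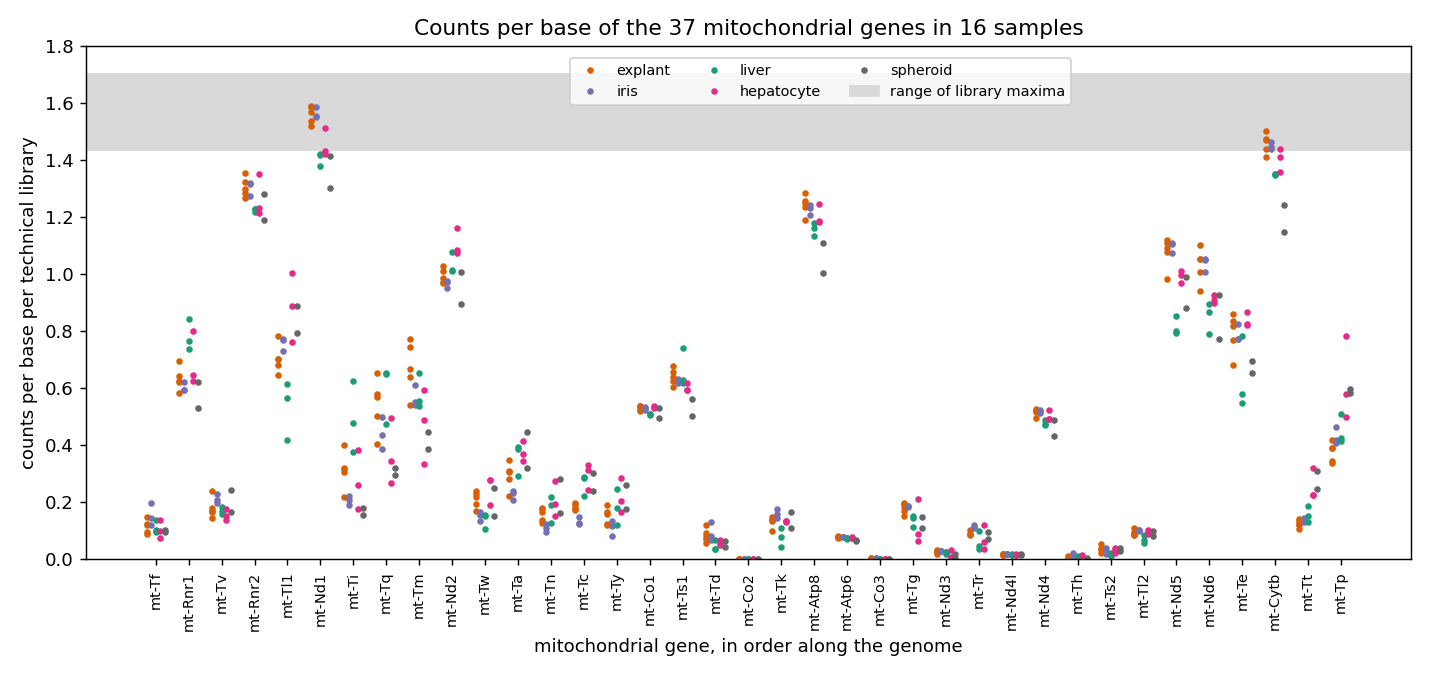
Counts per base of gene length per technical library (vertical axis) for the 37 mitochondrial genes in their order along the genome, 1 point a sample (mean of its 3 libraries), coloured by group. The grey band is the range over libraries, 1.44 to 1.703, of the highest gene of at least 500 bases: mt-Nd1 and mt-Cytb reach or approach it, while mt-Co2, mt-Co3, mt-Nd3 and mt-Nd4l lie near 0 in every group.

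The counts of the abundant genes hardly followed the depth of the sample. The deepest sample had 2.50 times the total count of the shallowest, while the summed mitochondrial count ran only from 29628 to 35639, a 1.203-fold range. mt-Co1 had 2487, 2434, 2490, 2494 and 2413 counts in the explants, 2478, 2448 and 2428 in the irises, 2348, 2358 and 2359 in the livers, 2483, 2469 and 2452 in the hepatocytes and 2290 and 2463 in the spheroids. The lowest and the highest of these 16 values differed 1.09-fold, and the shallowest sample, hepatocyte 3, stood above all 3 livers. mt-Rnr2 ranged 1.14-fold (5638 to 6430), mt-Nd1 1.22-fold (3736 to 4559), mt-Nd4 1.22-fold (1784 to 2179), mt-Atp8 1.28-fold (615 to 786), mt-Nd2 1.30-fold (2786 to 3615), mt-Cytb 1.31-fold (3936 to 5159), mt-Nd5 1.41-fold (4344 to 6119), mt-Nd6 1.43-fold (1199 to 1716) and mt-Rnr1 1.59-fold (1513 to 2408).

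**Figure D2:**
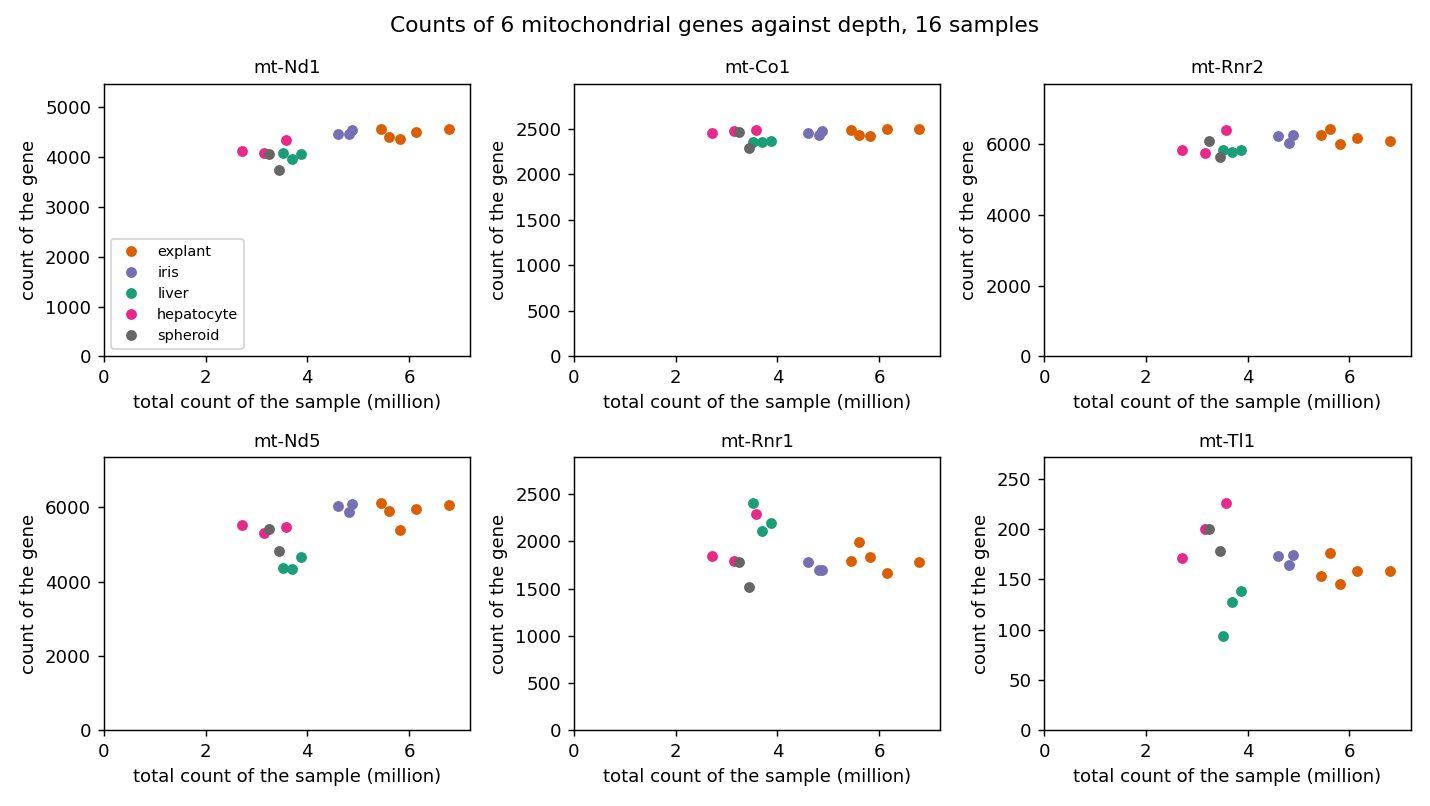
Count of a gene (vertical axis, from 0) against the total count of the sample (horizontal axis) for 6 mitochondrial genes, 1 point a sample, coloured by group. mt-Nd1, mt-Co1 and mt-Rnr2 lie on nearly level bands over the 2.50-fold range of depth, whereas mt-Nd5, mt-Rnr1 and mt-Tl1 show groups apart at similar depth, with the livers low for mt-Nd5 and mt-Tl1 and high for mt-Rnr1.

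The same was seen between technical libraries of one sample, which hold the same RNA and differed in depth by 1.10-fold to 1.31-fold. Here the change in log2 count per unit change in log2 depth, which is 1 where counts follow depth, was computed over the 48 libraries for genes with a mean of at least 50 counts per library. Nuclear genes with 0.1 to 0.2 counts per base had a median of 0.993 (778 genes), those with 0.4 to 0.8 a median of 0.701 (63 genes) and those above 0.8 a median of 0.443 (16 genes). Among the mitochondrial genes the value was 0.275 for mt-Nd1, 0.219 for mt-Cytb, 0.210 for mt-Rnr2, 0.170 for mt-Atp8, 0.102 for mt-Co1 and 0.0260 for mt-Atp6. It was higher for mt-Rnr1 (0.620), mt-Nd6 (0.622) and mt-Te (0.866). Removal of duplicate reads by the authors leaves a limited number of reads for each base. Where counts stay level, a fold change scaled to the library size moves with the depth of the samples. Comparisons of counts are therefore given both scaled and in counts. The comparison of corrected explants with liver was made on TPM, which are scaled as well.

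**Figure D3:**
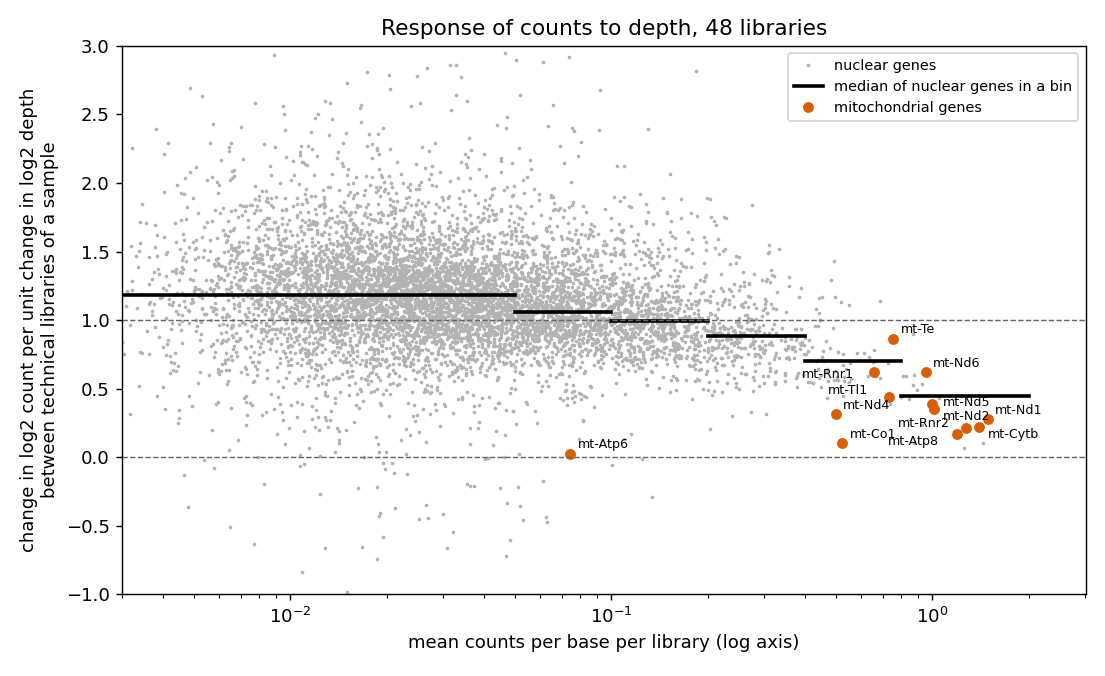
Change in log2 count per unit change in log2 depth between technical libraries of a sample (vertical axis) against mean counts per base per library (horizontal axis, log scale), for nuclear genes (grey) and the 13 mitochondrial genes with enough counts (orange). Black lines are medians of nuclear genes in bins, falling from 1.18 to 0.443; 17 nuclear genes lie beyond the vertical axis and 12 left of the horizontal one. Of the mitochondrial genes, mt-Te and mt-Nd6 lie above the lines and the others below.

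The protein-coding genes with the fewest counts all have a near-identical nuclear copy. A search of 141767 other GENCODE transcripts with the 37 mitochondrial ones found 7 protein-coding genes with a copy of at least 99% identity over at least 200 bases. The copies are Gm29216 (of mt-Co1), Gm28661 (mt-Co2), Gm10925 (mt-Atp6), Gm28437 (mt-Co3), Gm28438 (mt-Nd3), Gm10222 (mt-Nd4l) and Gm28439 (mt-Nd4), all on the minus strand of chromosome 1 between 24611535 and 24616197. Their order and, within 1 base, their spacing repeat chromosome M from 6390 to 11042, a span of 4653 bases that holds 11 mitochondrial genes whole. Reads that map to several places were not counted by the authors. The tRNA genes mt-Ts1, mt-Td, mt-Tk, mt-Tg and mt-Tr lie in this span. Whether their reads also map to chromosome 1 was not tested, so their counts may be too low. mt-Co2 was identical to its copy over 681 of 684 bases and had 0 to 3 counts in every sample, and Gm28661 had 0 or 1. mt-Co3 was identical over 783 of 784 bases and had 0 to 8 counts, and mt-Nd4l was identical over 294 of 297 bases and had 11 to 17. The level of their RNA cannot be read from these counts.

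The other copied genes kept countable bases. mt-Nd4 was identical to its copy over the first 876 of 1378 bases, and its counts divided by the other 502 bases came to 1.37 per base per library, beside 0.499 over the whole gene. mt-Co1 was copied over 483 of 1545 bases, and over the other 1062 bases its counts came to 0.763. mt-Atp6 was identical to Gm10925 over 678 of 681 bases, and its 126 to 164 counts stand beside the 43 bases it shares with mt-Atp8, since a read that overlaps several genes was counted for each. mt-Atp8 itself lies inside the copied span. Its last 43 of 204 bases, those shared with mt-Atp6, match Gm10925 at 100% identity, so reads wholly within them also map to chromosome 1. No annotated transcript covers the rest of the matching place, and the genome sequence there was not used here. The other 6 protein-coding genes, mt-Nd1, mt-Nd2, mt-Nd5, mt-Nd6, mt-Cytb and mt-Atp8, had no copy of at least 99% identity over at least 200 bases.

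The single base T3C between mt-Nd3 and Gm28438 came with a split between samples. In hepatocyte 2, hepatocyte 3 and spheroid 2, mt-Nd3 had 5, 6 and 5 counts and Gm28438 had 24, 28 and 25. In the other 13 samples mt-Nd3 had 17 to 33 counts and Gm28438 had 2 to 5, so that the ranges did not overlap for either gene. The share of the summed counts that fell on mt-Nd3 was 16.7% to 17.6% in the 3 samples and 81.0% to 94.3% in the other 13. With 35 counts on both genes, the exact 95% binomial interval was 80.8% to 99.3% for hepatocyte 1, and with 34 counts it was 6.76% to 34.5% for hepatocyte 3 (counting error only). Gm28438 exceeded mt-Nd3 in 9 of the 9 technical libraries of the 3 samples and in 0 of the other 39. The sum of both genes, 29 to 34 counts in the 3 samples and 21 to 35 in the others, overlapped.

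mt-Tg, the glycine tRNA gene that ends at the base before mt-Nd3 starts, was also lowest in these samples, with 18, 13 and 22 counts beside 23 to 43 in the other 13. The 3 samples were also the shallowest of all, with total counts of 3154748, 2718518 and 3247327 beside at least 3447643 in the others. The part of depth in the counts of mt-Tg was not tested. The split did not follow the groups: liver 2, liver 3 and hepatocyte 1 had 24, 25 and 33 counts of mt-Nd3. C57BL/6J and C57BL/6N mice are known to differ in mitochondrial DNA within mt-Nd3. The labels give C57BL/6N for all samples and the methods name a C57BL/6J background, and which of them, if either, sets the 3 samples apart from the other 13 was not tested. Values of mt-Nd3 and mt-Tg in comparisons with hepatocytes or spheroids rest on samples of both kinds: mt-Nd3 had a log2 fold change of -0.32 ± 0.60 (SE) for hepatocytes against liver, the average of 1 sample with 33 counts and others with 5 and 6.

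**Figure D4:**
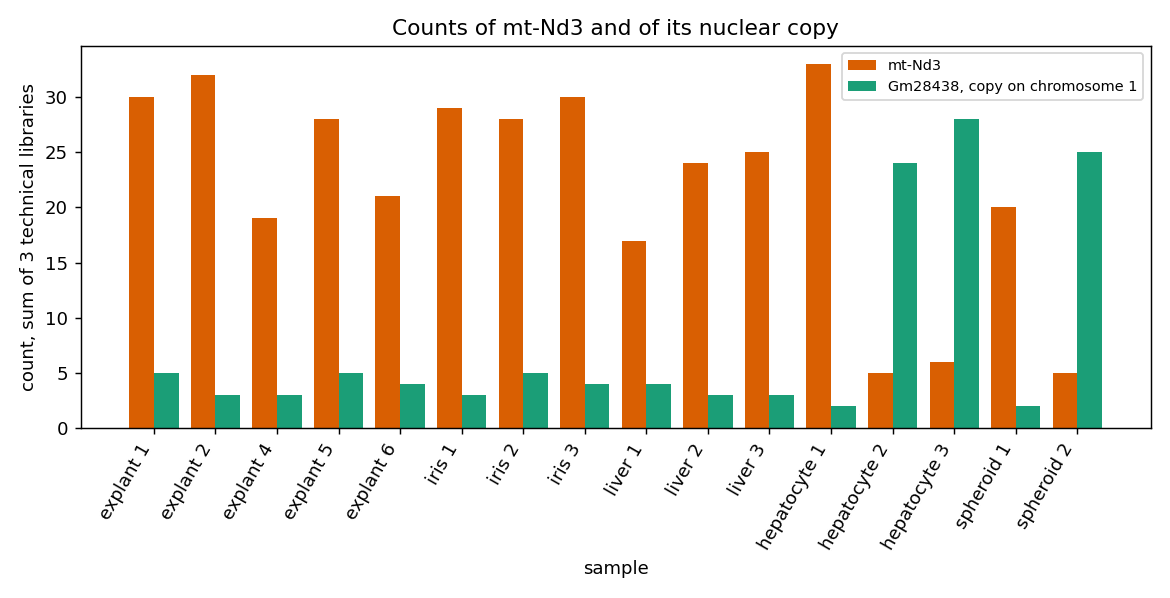
Counts summed over 3 technical libraries (vertical axis, from 0) of mt-Nd3 (orange) and its nuclear copy Gm28438 (green) in each of the 16 samples. Hepatocyte 2, hepatocyte 3 and spheroid 2 have 5 or 6 counts on mt-Nd3 and 24 to 28 on the copy, and the other 13 samples have 17 to 33 and 2 to 5.

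As a share of all counts, mitochondrial genes were lowest in explants and highest in hepatocytes, the reverse of the order of the groups by mean depth. The share was 0.589% ± 0.0495 (SD, n = 5) in explants, 0.730% ± 0.0251 (n = 3) in irises, 0.872% ± 0.0403 (n = 3) in livers, 1.09% ± 0.125 (n = 3) in hepatocytes and 0.859% and 1.01% in the spheroids. The ranges of explants (0.523% to 0.647%), irises (0.713% to 0.758%), livers (0.844% to 0.918%) and hepatocytes (0.997% to 1.23%) did not overlap, and those of livers and spheroids did. The summed counts did not follow that order, with means of 34898 in explants, 34731 in irises, 32172 in livers, 34055 in hepatocytes and 31211 in spheroids. As a share of TPM, which weights short genes more, the genes took 2.22% to 2.63% in explants, 2.89% to 3.14% in irises, 3.08% to 3.29% in livers, 3.76% to 4.27% in hepatocytes and 3.26% and 3.85% in spheroids. The tRNA genes made up 1.21% ± 0.112 of TPM in livers and 0.0331% ± 0.00322 of their counts. A read that overlaps several genes was counted for each. Reads of adjoining genes therefore enter the values of tRNA genes here and in every comparison below, and these need not be levels of mature tRNA.

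Iris was compared with liver to set the host tissue of the graft beside the endogenous organ. Of 33 mitochondrial genes tested, 26 were lower in iris, with edgeR's quasi-likelihood test and a Benjamini-Hochberg adjusted p under 0.05 over all genes, and none was higher, where 73.6% of all genes tested were called, 39.1% as higher and 34.5% as lower. The median log2 fold change was -0.94, beside 0.11 for all genes. The irises had the larger scaled library size, by 1.05 on the log2 scale, and the log2 fold changes of the 10 abundant protein-coding and rRNA genes lay around minus that value. Unscaled, the log2 ratio of mean counts of these 10 genes had a median of 0.10 and ran from -0.37 to 0.43. By counts as deposited, 16 of the 33 genes were higher in every iris than in every liver (69.8% of all genes tested) and 6 were lower (15.2%).

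mt-Rnr1 had 1701, 1779 and 1701 counts in irises and 2115, 2408 and 2191 in livers, the lower in the deeper samples, with a log2 fold change of -1.42 ± 0.12 and an edgeR adjusted p of 5.7e-06. mt-Rnr2, which is cut from the same transcript, had 6257, 6238 and 6040 in irises and 5774, 5835 and 5829 in livers and a log2 fold change of -0.96 ± 0.09. The ratio of the rRNA genes thus differed between the tissues in the counts themselves. Between technical libraries, mt-Rnr2 followed depth less than mt-Rnr1 (0.210 and 0.620), so this ratio of counts need not be that of the RNAs. Of the 7 complex I genes 6 were called lower, from -0.62 for mt-Nd5 to -1.14 for mt-Nd2. mt-Nd5 had 6075, 6044 and 5872 counts in irises and 4344, 4371 and 4669 in livers, the widest unscaled difference among the abundant genes. mt-Nd6, on the other strand, had 1641, 1631 and 1567 in irises and 1230, 1395 and 1351 in livers, and mt-Nd2 had 3031, 3038 and 2965 against 3158, 3150 and 3351.

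mt-Cytb had 5019, 4936 and 4966 counts in irises and 4641, 4622 and 4638 in livers, and mt-Nd1 had 4548, 4456 and 4462 against 3954, 4077 and 4066. Their log2 fold changes were -0.94 ± 0.09 and -0.89 ± 0.09. mt-Co1, the only one of the 3 complex IV genes with enough counts to be tested, had -0.99, and the genes of complex V had -0.96 for both mt-Atp6 and mt-Atp8.

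Of 20 tRNA genes tested 14 were called lower. The isoleucine tRNA gene mt-Ti had 39, 46 and 43 counts in irises and 78, 99 and 129 in livers, with a log2 fold change of -2.30 ± 0.24 and an edgeR adjusted p of 2.7e-05, the lowest of all mitochondrial genes in this comparison. mt-Tl1 went the other way in counts, with 174, 173 and 164 in irises and 127, 94 and 138 in livers and a scaled log2 fold change of -0.53 ± 0.15. The 8 tRNA genes on the minus strand were all called lower, with a median of -1.59, whereas 6 of the 12 tested on the plus strand were, with a median of -0.60. Counting disregarded strand, and a read that overlaps several genes was counted for each. Reads of the opposite transcript and of adjoining genes therefore enter these values. With no scaling beyond the library size, 17 genes were called, and mt-Nd5 stood at 0.066 and mt-Tl1 at 0.15. Calls over all genes were then 9043 higher and 3148 lower, beside 6042 and 5334 before. The median of all genes moved to 0.80 and that of the mitochondrial genes to -0.26. A change of scaling shifts all genes by nearly the same amount. The distance between both medians, -1.06, could therefore hardly move and tests nothing.

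The isolated hepatocytes were compared with liver, the tissue from which such cells come. Of 33 genes tested 3 were called higher and none lower, where 3.62% of all genes were called, 0.785% as higher and 2.84% as lower. They were mt-Tl1, mt-Tw for tryptophan and mt-Nd5. An unadjusted p under 0.05 was found for 17 of the 33, and the share of all genes at that threshold is not given here. All but 3 of the 33 had a log2 fold change above 0, with a median of 0.43 beside 0.01 for all genes, and the scaled library size of the hepatocytes was smaller by 0.34 on the log2 scale. By counts as deposited, 13 of the 33 were higher in every hepatocyte sample than in every liver (1.85% of all genes tested), although the hepatocytes were less deep on average, and none was lower (32.2%).

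mt-Tl1 had 226, 200 and 171 counts in hepatocytes and 127, 94 and 138 in livers, with a log2 fold change of 1.08 ± 0.15 and an edgeR adjusted p of 0.021. mt-Nd5 had 5458, 5298 and 5520 counts against 4344, 4371 and 4669, with a log2 fold change of 0.65 ± 0.14 (adjusted p = 0.049). mt-Tw had 56, 56 and 38 counts against 21, 31 and 30, with a log2 fold change of 1.197 ± 0.26 (adjusted p = 0.049). The groups overlapped for none of these genes. For the tRNA gene mt-Te, the hepatocytes had 179, 171 and 170 counts and the livers 120, 113 and 162, with a log2 fold change of 0.76 ± 0.17 and an adjusted p of 0.052, and for mt-Tp, the proline tRNA gene, 157, 100 and 116 against 85, 83 and 102 gave 0.81 ± 0.18 and again 0.052.

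The other abundant genes lay close together. mt-Cytb had 4941, 4656 and 4835 counts in hepatocytes, with a log2 fold change of 0.41 ± 0.14, mt-Nd1 had 4340, 4079 and 4113 (0.41 ± 0.13), mt-Nd2 had 3615, 3345 and 3378 (0.45 ± 0.13) and mt-Nd6 had 1397, 1413 and 1440 (0.46 ± 0.16), and none was called. mt-Rnr1 had 2290, 1788 and 1847 counts, with hepatocyte 1 inside the range of the livers, and mt-Rnr2 had 6411, 5758 and 5840. mt-Ti, at 79, 36 and 54 counts, had a log2 fold change of -0.52 ± 0.29 and was not called. The markers of other cells moved as well: 5 erythroid markers summed to 337 to 342 TPM in hepatocytes and 611 to 764 TPM in livers, and 5 macrophage markers to 103 to 164 TPM and 281 to 850 TPM, and their part in the values was not tested. Leaving out any single sample brought the 3 calls to between 0 and 2, with 0 without hepatocyte 2, hepatocyte 3 or liver 2 and 1 without liver 1 or liver 3, and a single fit of all 5 groups gave 17. Calls over all genes, 96 higher and 347 lower, became 942 and 1309 in the single fit. They were 8 and 7 without hepatocyte 2, 4 and 4 without hepatocyte 3, and 5 and 15 without liver 2. Without hepatocyte 1 they were 164 and 404, without liver 1 30 and 124, and without liver 3 19 and 86.

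Spheroids kept in vitro were compared with the hepatocyte preparations. Of 33 genes tested 1 was called, mt-Te, which had 135 and 144 counts in spheroids and 179, 171 and 170 in hepatocytes, with a log2 fold change of -0.66 ± 0.20 and an edgeR adjusted p of 0.046, where 25.8% of all genes were called, 12.5% as higher and 13.4% as lower. Of the 33, 32 had a log2 fold change below 0, with a median of -0.45, and the scaled library size of the spheroids was larger by 0.35 on the log2 scale. That median was -0.24 without spheroid 1 and -0.75 without spheroid 2. The erythroid markers summed to 12.8 to 19.1 TPM in spheroids and 337 to 342 TPM in hepatocytes, and the macrophage markers to 410 to 487 TPM and 103 to 164 TPM, and their part in the values was not tested. By counts, 9 genes were lower in both spheroids than in every hepatocyte sample (13% of all genes tested) and none was higher (39.8%). The 9 were mt-Rnr1, mt-Nd1, mt-Nd2, mt-Ts1, mt-Atp8, mt-Atp6, mt-Nd4, mt-Te and mt-Cytb.

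Between the spheroids, the first stood lower. mt-Cytb had 3936 and 4261 counts, mt-Nd1 3736 and 4063, mt-Nd5 4816 and 5410 and mt-Rnr1 1513 and 1782 in spheroids 1 and 2, with spheroid 1 the deeper sample. Spheroid 1 was the lowest of all 16 samples for 9 of the 10 abundant genes, and liver 1 was for mt-Nd5. Without spheroid 2 the count of calls was 4, and without spheroid 1, hepatocyte 1 or hepatocyte 3 it was 0. With either spheroid left out, the remaining one is assumed to vary as the hepatocytes do.

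Explants were compared with naive irises to see what the engrafted spheroids add to the tissue around them. Of 33 mitochondrial genes tested 1 was called, where 11.8% of all genes were, 9.04% as higher and 2.74% as lower. At an unadjusted p under 0.05 there were 16 of the 33, and the share of all genes at that threshold is not given here. The called gene mt-Nd6 had 1640, 1567, 1636, 1716 and 1463 counts in explants and 1641, 1631 and 1567 in irises, with a log2 fold change of -0.24 ± 0.07 and an edgeR adjusted p of 0.046. The counts of explants and irises overlapped, and the median log2 fold change of -0.24 for the mitochondrial genes stood beside a scaled library size larger by 0.24 in the explants. The macrophage markers summed to 824 to 1979 TPM in explants and 521 to 562 TPM in irises, and 5 muscle markers to 1764 to 2285 TPM and 2561 to 2664 TPM, and their part in the values was not tested. The 10 abundant genes had unscaled log2 ratios from -0.027 to 0.070. mt-Nd1, for example, had 4553, 4409, 4500, 4559 and 4361 counts in explants, mt-Cytb 5041, 4942, 5051, 5159 and 4844, mt-Rnr2 6277, 6430, 6168, 6098 and 6012 and mt-Nd5 6119, 5896, 5967, 6071 and 5384.

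Some tRNA genes stood apart from that pattern without being called. mt-Ti had 45, 65, 66, 83 and 63 counts in explants and 39, 46 and 43 in irises, the explants lying towards the livers, with a log2 fold change of 0.34 ± 0.19 and an adjusted p of 0.27. By counts, 3 genes were higher in every explant than in every iris, mt-Tw, mt-Tn and mt-Tc, which encode tRNAs for tryptophan, asparagine and cysteine, where 27.6% of all genes were. The arginine tRNA gene mt-Tr, which lies in the span repeated on chromosome 1, was lower in every explant, with 17 to 21 counts beside 22 to 24 (0.99% of all genes). mt-Rnr1, at 1789, 1990, 1669, 1783 and 1836 counts, overlapped the irises. Leaving out explant 6 raised the calls to 6 and leaving out explant 1 to 2, and without any other single sample none was called. Library size without scaling gave 11, all lower. Calls over all genes, 1515 higher and 460 lower, were 1366 and 596 without explant 6 and 1746 and 541 without explant 1. They were 626 and 135, 696 and 84, and 668 and 116 without irises 1, 2 and 3. With library size alone they were 1367 and 890.

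In the study, explants were compared with liver after subtraction of an iris share, and the shares solved from the deposited tables were 82%, 68%, 81%, 72% and 59% for explants 1, 2, 4, 5 and 6. By the formula of the methods, 12, 3, 25, 18 and 7 of the 37 genes were then at 0 in these explants. In the corrected values as deposited, 12, 3, 29, 17 and 6 of 36 mitochondrial genes were at 0, beside 20.5%, 17.98%, 35.3%, 17.4% and 19.2% of the other genes. Explant 2 lay below that share and explant 6 close to it. mt-Nd1 had 1224, 1225, 0, 0 and 1156 TPM by the formula, beside 2879, 2999 and 2801 TPM in livers. TPM are scaled to depth, and the explants were deeper than the livers, at 5449589 to 6789648 against 3523171 to 3871404 total counts. Without subtraction or scaling, the summed mitochondrial count was 33554 to 35543 in explants and 31487 to 32692 in livers. How far depth sets the difference in TPM was not tested. Before subtraction 34, 29, 30, 32 and 31 of the 37 genes were below the mean TPM of the irises in these explants. The share of all genes below it was not counted, so these numbers cannot be read as particular to the mitochondrial genes.

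On the log2(TPM + 1) scale, limma called 5 of 36 mitochondrial genes as lower in corrected explants and none higher, where 15.7% of all genes were called, 12.2% as higher and 3.5% as lower. The genes were mt-Tf, mt-Tk, mt-Tr, mt-Te and mt-Tp, all tRNA genes. Of these, mt-Tk and mt-Tr lie in the span of chromosome M that is repeated on chromosome 1. mt-Tf was at 0 in all 5 explants beside 195, 217 and 271 TPM in livers, and mt-Te had 304, 807, 202, 184 and 278 TPM beside 1212, 1153 and 1548 TPM, a difference of -2.09 ± 0.43 on that scale (limma adjusted p = 0.013). No protein-coding or rRNA gene was called, with differences from -1.13 to -5.36 and standard errors up to 2.72 for mt-Nd1, since explants with values and explants at 0 stood side by side. Before subtraction 20 genes were called lower, without explant 2 there were 9 and without liver 2 there were 3. Calls over all genes, 2554 higher and 736 lower, moved as well. They were 11339 and 2727 before subtraction, 2596 and 791 without explant 2, and 953 and 215 without liver 2.

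**Figure D5:**
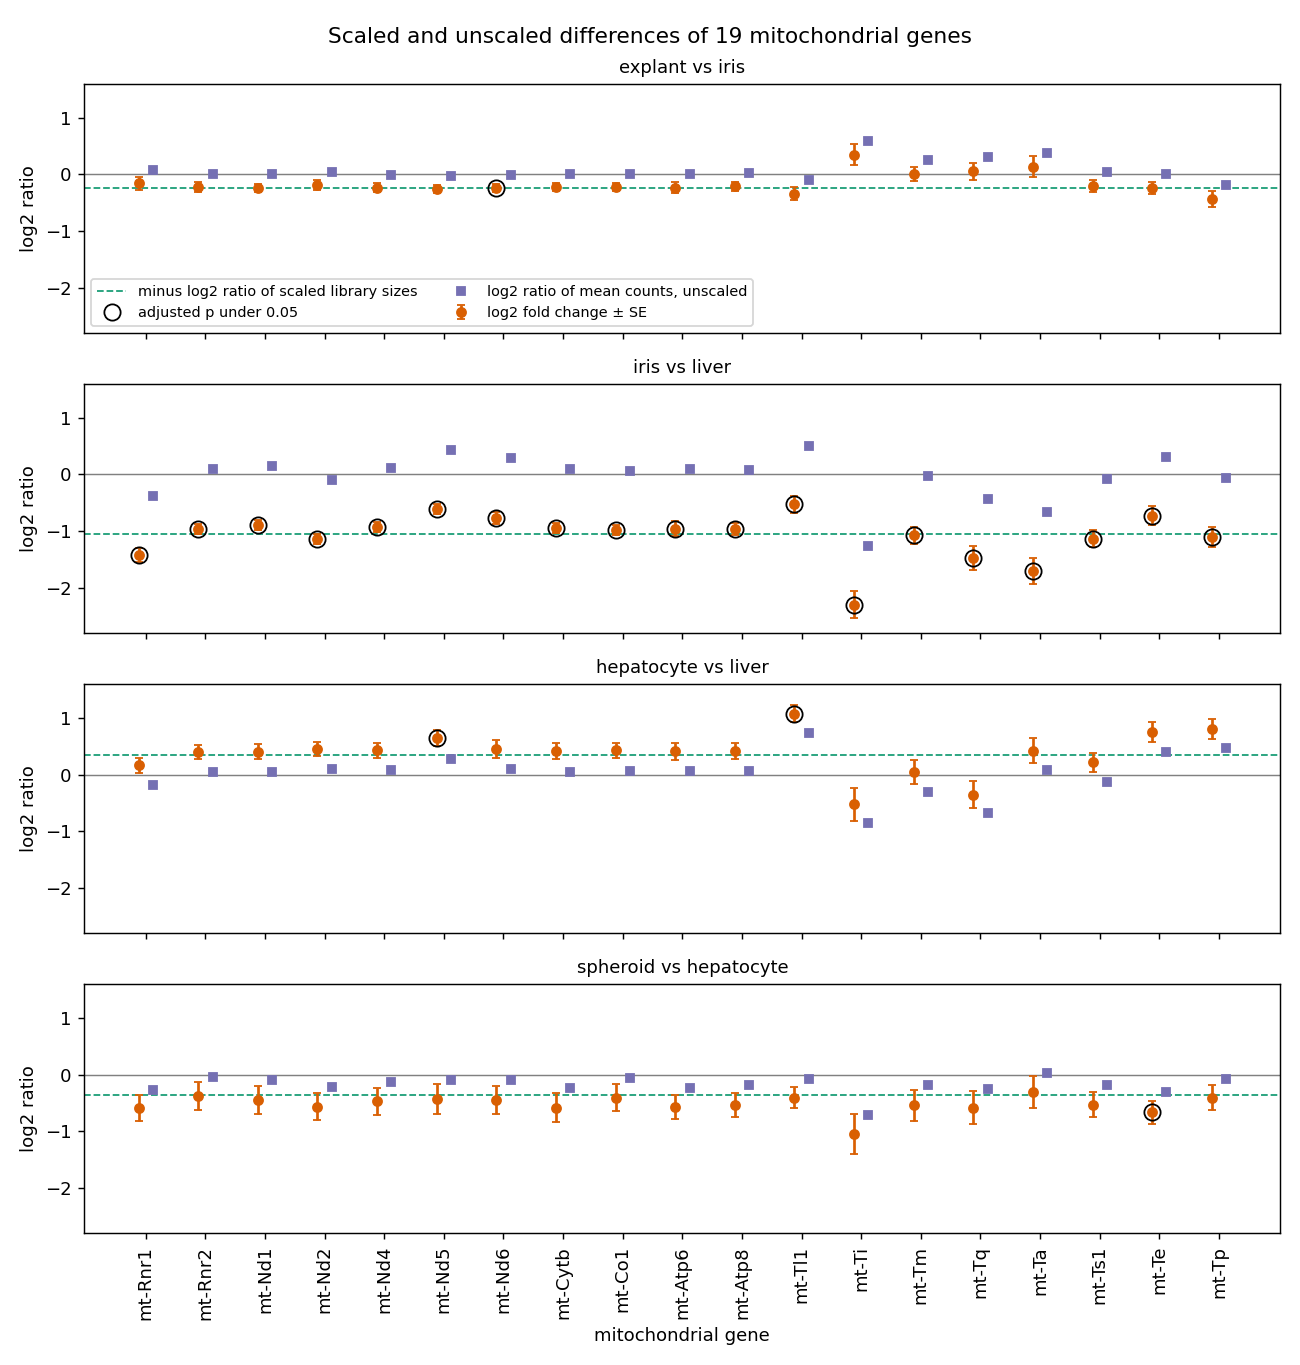
For 19 mitochondrial genes in 4 comparisons, the log2 fold change scaled to the library (orange, bars are SE, ringed where adjusted p is under 0.05), the unscaled log2 ratio of mean counts (purple squares), and minus the log2 ratio of scaled library sizes (green dashed line), all on the vertical axis as log2 ratios. Most protein-coding and rRNA genes lie near the dashed line with unscaled ratios near 0, while mt-Ti, mt-Tl1, mt-Nd5 and mt-Rnr1 depart from it in some comparisons.

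The nuclear genes of mitochondrial transcription and RNA handling were read beside them, and of 35 listed genes 34 were in the table. In iris against liver 17 of 33 tested were lower and 6 higher, 69.7% of them, where 73.6% of all genes were called. That split rests on the scaling: with library size alone, an alternative chosen after the data were seen, edgeR called 9 lower and 12 higher, and the median log2 fold change of the list moved from -0.47 to 0.21 (all genes from 0.11 to 0.80). Of the 17 genes called lower, 7 had a higher mean TPM in irises. Polrmt, the mitochondrial RNA polymerase, was among the 7, with -0.72 ± 0.17 scaled, -0.041 ± 0.19 with library size alone, and 21.9 ± 2.68 TPM (SD, n = 3) in irises against 19.6 ± 4.90 TPM (n = 3) in livers.

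Tfam, Lrpprc, Elac2, Mterf2 and Ppargc1a kept their direction on each of these scales. Tfam, which packs mitochondrial DNA and takes part in starting its transcription, had a log2 fold change of -1.21 ± 0.11 scaled and -0.52 ± 0.098 with library size alone, with 48.01 ± 2.30 TPM in irises and 59.8 ± 3.56 TPM in livers. Lrpprc, which stabilises mitochondrial mRNAs, had -1.56 ± 0.12 and -0.88 ± 0.12 on these scales, with 32.6 ± 2.67 TPM and 51.9 ± 6.21 TPM. Elac2, an enzyme that trims tRNAs, was the lowest with -2.08 ± 0.16 and -1.39 ± 0.16, and Mterf2 the highest with 1.503 ± 0.28 and 2.18 ± 0.28. Ppargc1a, a coactivator of mitochondrial biogenesis, was higher in iris, at 40.6 ± 1.52 TPM against 11.1 ± 5.82 TPM.

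In hepatocytes against liver 1 of 32 was called, 3.12%, near the 3.62% of all genes. It was Tefm, the elongation factor of mitochondrial transcription, with 0.68 ± 0.15 (edgeR adjusted p = 0.046). Tfam had -0.028 ± 0.12, Polrmt 0.11 ± 0.21, Lrpprc 0.30 ± 0.13 and Ppargc1a -0.94 ± 0.41 in that comparison, none of them called. In spheroids against hepatocytes 4 were lower and 2 higher, 18.8% of 32 beside 25.8% of all genes, and with library size alone 1 was lower and 5 higher. The values ran from -1.24 ± 0.21 for Hsd17b10, a subunit of mitochondrial RNase P, to 0.76 ± 0.23 for Nrf1, a transcription factor of nuclear genes for mitochondrial proteins, and Lrpprc had -0.66 ± 0.17. Tfam (-0.36 ± 0.16), Polrmt (-0.27 ± 0.22) and Ppargc1a (-0.40 ± 0.40) were not called.

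In explants against irises 2 of 33 were called, the helicase gene Twnk (0.36 ± 0.10) and Pnpt1, an RNA-degrading enzyme of mitochondria (0.36 ± 0.087). Both were higher, 6.06% of the list beside the 9.04% of all genes called higher. Tfam had 0.086 ± 0.080, Polrmt 0.31 ± 0.14, Lrpprc 0.24 ± 0.076 and Ppargc1a -0.14 ± 0.12 there, none of them called. With library size alone edgeR called 0 of the list in this comparison (4 at an unadjusted p under 0.05) and 0 in hepatocytes against liver (8). The share of all genes at that unadjusted threshold is not given here. In corrected explants against liver 2 of 33 were called, both higher, where 12.2% of all genes were: Pnpt1 and Mterf4, with differences of 1.04 ± 0.29 and 1.64 ± 0.42 on the log2(TPM + 1) scale. Tfam (-0.37 ± 0.23), Polrmt (0.83 ± 0.48), Lrpprc (-0.16 ± 0.32) and Ppargc1a (0.64 ± 0.84) were not called.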

How the data were processed

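Smart-seq3 reads of 48 libraries were aligned by the authors with TopHat2 to mm10 (GRCm38), UMI-tools and SAMtools served to drop duplicates, and the deposited counts came from featureCounts v1.4.6-p5 on GENCODE exons, without strand, with multi-mapping reads left out and reads over several genes counted for each. The deposited TPM tables, before and after the iris correction, are the authors' too; the correction differed from the formula of the methods in explant 4, and the formula was applied here to every explant. A matrix of the 48 libraries without gene identifiers repeats the per-library files and was not used.

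Technical libraries were summed per sample. Counts were tested with edgeR 4.0.16 (quasi-likelihood, TMM, filterByExpr) in R 4.3.3, 1 fit per comparison, and corrected TPM with limma 3.58.1 on log2(TPM + 1) at a mean of at least 1 TPM, with Benjamini-Hochberg adjustment over all genes and calls under 0.05. Symbols and transcripts came from GENCODE M21, whose coordinates matched for all 37 genes. Transcripts were searched with blastn 2.17.0 (word size 28). The tests recovered 200 of 200 changed genes in simulated data for iris against liver (log2 change of 2, 15400 genes, edgeR), with 8 unchanged genes called. The simulated counts had no limit per base, so the recovery of smaller changes or of genes whose counts stay level was not tested. Alternatives used DESeq2 1.42.0, limma-voom, other scalings and filters, 1 technical library, an undone limit of read starts per base, and samples left out. ERCC controls (418 counts in all) were left out. Named were all protein-coding and rRNA genes, tRNA genes with a mean of at least 50 counts per sample, and of the nuclear list the called extremes and 4 fixed genes. The other tRNA genes, and Gm28438, were named after their values were seen. The members and lists were chosen with earlier results of these data known.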

Additional observations from a re-analysis of the deposited data

Results flagged for a closer look

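Among the explants, the count or TPM of each mitochondrial gene with a mean of at least 10 counts was searched for a sample far from the others (Dixon's test), 66 sets of 5 values, of which chance alone would flag about 1 in 20. A single value was flagged: mt-Tr, the arginine tRNA gene, had 21 counts in explant 4, beside 18, 17, 18 and 18 in explants 1, 2, 5 and 6. Explant 4 was not the deepest of the explants, and the difference amounts to 3 counts.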

How the results depend on the processing

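No mitochondrial gene was called in the opposite direction under any alternative run. Counts of called genes moved most where few were called. For explant against iris (1 called), DESeq2 gave 5, edgeR with RLE size factors 2, library size alone 11, at least 10 counts in every sample 2 and an undone limit of 2 read starts per base 2; limma-voom, no filter, a single fit of all 5 groups, an undone limit of 1.7, a replicate block and a required absolute log2 change over 1 each gave 0, and leaving out 1 sample gave 0 to 6. For iris against liver (26), library size alone gave 17, a log2 change over 1 gave 12, and leaving out 1 sample 22 to 27. For hepatocyte against liver (3), DESeq2 and no filter gave 7, limma-voom, at least 10 counts and technical library a gave 1, a single fit 17, undone limits of 2 and 1.7 gave 6 each, and leaving out 1 sample 0 to 2. For spheroid against hepatocyte (1), DESeq2, library size alone, technical library a, the block and a log2 change over 1 gave 0, no filter 2, a single fit 13, and leaving out 1 sample 0 to 4. For corrected explant against liver (5), TPM before correction gave 20, the block 0, and leaving out 1 sample 3 to 9. Over all genes, TPM before correction gave 11339 higher and 2727 lower beside 2554 and 736, and the block gave 0 and 0. Of 803 log2 fold changes of 11 genes recomputed, 2 changed sign, both in iris against liver under library size alone: mt-Nd5 to 0.066 and mt-Tl1 to 0.15. That scaling moved the calls over all genes from 6042 higher and 5334 lower to 9043 and 3148. The single fit moved them from 96 and 347 to 942 and 1309 for hepatocyte against liver. For spheroid against hepatocyte it moved them from 1526 and 1637 to 2489 and 2419. The mean share of counts on these genes became 0.862%, 1.07%, 1.17%, 1.51% and 1.26% in explants, irises, livers, hepatocytes and spheroids with the limit of 2 undone, 0.670% in irises with technical library a, and 2.43%, 2.98%, 3.21%, 3.95% and 3.56% as a share of TPM. No label says what the sample numbers mark, so the block is given only here. Samples of the same number had deviations from their group means that correlated at -0.12 to 0.11. With so few samples in a group, these correlations cannot decide whether the samples were paired. Depth limits the genes with few counts, such as mt-Nd4l (11 to 17 per sample), for which small fold changes were not detectable.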
